A study of Mus musculus with 4 samples.

Results

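The 39 genes described here act in the sensing and repair of DNA double-strand breaks in the mouse. They were taken by symbol from a list that covers damage sensing, end joining, homologous recombination and the Fanconi anaemia pathway, with no filter on expression, and all 39 listed genes were found among 23740 named genes. A double-strand break is bound by sensor complexes that activate the kinases ATM, ATR and DNA-PK, which phosphorylate chromatin and checkpoint proteins. The ends are then either ligated directly by non-homologous end joining, which is available throughout the cell cycle, or repaired from the sister chromatid by homologous recombination, which acts in S and G2 phase. Quiescent haematopoietic stem cells (HSCs) are known to rely largely on end joining, and loss of several of these genes limits their long-term function.

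Marrow cells that were lineage-negative, c-Kit-positive and Sca-positive received γ-irradiation at 0, 0.02, 0.1 or 0.5 Gy and were given to lethally irradiated mice. After 6 months, long-term HSCs were sorted as cells with the same 3 properties that were also Flk2-negative, CD48-negative and CD150-positive. All 4 groups, 0 Gy included, therefore went through a transplantation, and the gate names no marker that separates donor from host cells. The sources used here do not give the strain, age or number of mice or any pooling of RNA. RNA of each dose was hybridised to 1 array, so no spread within a dose is known, and each difference between 2 doses below is a difference between 2 arrays without a test. Values are deposited log2 intensities, and differences are on the log2 scale. A difference of 0.585, which is 1.5-fold, was used as a fixed size for counting.

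Transcripts of the gate's markers differed between the arrays. Kit, which encodes c-Kit, had 10.16, 10.57, 10.40 and 10.12 at 0, 0.02, 0.1 and 0.5 Gy. Ly6a, a gene of the Sca-1 antigen, had 10.55, 10.85, 9.68 and 9.72, and Slamf1, which encodes CD150, had 7.67, 8.65, 7.16 and 7.77. All 3 genes of markers selected for were thus highest at 0.02 Gy. Of the markers selected against, Flt3, which encodes Flk2, had 4.46, 4.76, 5.44 and 4.76, and Cd48 had 4.13, 3.08, 4.11 and 4.13. Cd34, a progenitor marker, had 8.68, 7.79, 9.77 and 9.70. A list of 13 genes includes these 6, and so mixes stem cell markers with Cd34 and the selected-against Flt3 and Cd48. The list had 10 genes above and 3 below 0 Gy at 0.02 Gy. At 0.1 Gy 6 were above and 7 below, and at 0.5 Gy 6 above and 6 below. Cd34 and Cd48 were among the 3 below at 0.02 Gy, and Cd34 and Flt3 among the 6 above at 0.1 and at 0.5 Gy. The 12 B and plasma cell markers had mean values of 4.98, 5.75, 4.77 and 4.43 in the same order, the 12 granulocyte progenitor markers 4.02, 4.38, 5.44 and 4.82, and the 7 measured erythroid markers 6.68, 6.44, 7.19 and 7.37. The 9 measured monocyte and dendritic markers had means of 5.18, 5.59, 4.68 and 4.99. Among the 10 T and NK cell markers, 7, 6, 7 and 7 lay below 4.07, the median of all gene means. At 0.5 Gy 1 of the 10, Nkg7 at 1.02, was at least 1.5-fold higher than at 0 Gy and 1 was lower. The arrays thus differed in transcripts listed as markers of other blood cells. Some of these were high on all 4 arrays, such as the erythroid marker Car2 with 11.03, 10.63, 10.89 and 10.80. Which cells the transcripts came from, and the part of these differences in the results below, was not tested.

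Of the 39 break repair genes, 5 (12.8%) stood at least 1.5-fold from 0 Gy at some dose, beside 18.3% of all named genes. Among named genes with a mean at or above 4.07, a level that 36 of the 39 members reached, the share was 26.2%. The 5 members were the checkpoint kinase gene Chek1, the recombination genes Rad51d and Xrcc2, the ubiquitin ligase gene Brca1, and the Fanconi core complex gene Fancg. Chek1 was lower at 0.02 Gy, Brca1, Xrcc2 and Fancg were higher at 0.1 Gy, and Rad51d was lower at 0.1 and 0.5 Gy. The other 34 members stayed under 1.5-fold at all 3 doses. The median difference over the 39 members was -0.01 at 0.02 Gy and 0.00 at both 0.1 and 0.5 Gy, against 0.00 over all named genes at each dose.

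At 0.02 Gy, 0 of 39 members were at least 1.5-fold higher than at 0 Gy and 1 (2.56%) was lower, beside 4.58% and 4.29% of all named genes. At 0.1 Gy, 3 members (7.69%) were higher and 1 (2.56%) was lower, beside 4.01% and 4.97%. At 0.5 Gy, 0 were higher and 1 (2.56%) was lower, beside 4.36% and 5.4%. Among named genes with a mean at or above 4.07, 6.39% were higher and 6.22% lower at 0.02 Gy. The shares of these genes were 5.50% and 7.50% at 0.1 Gy, and 5.92% and 8.27% at 0.5 Gy. The shares of the 39 members are within a few genes of the background, and the 3 comparisons use the same 0 Gy array. Counted without regard to size, 10 members lay above, 22 below and 7 exactly at the 0 Gy value at 0.02 Gy. At 0.1 Gy there were 14 above, 15 below and 10 equal, and at 0.5 Gy again 14, 15 and 10. Of all 23740 named genes, 8584 lay above and 9887 below 0 Gy at 0.02 Gy.

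**Figure D1:**
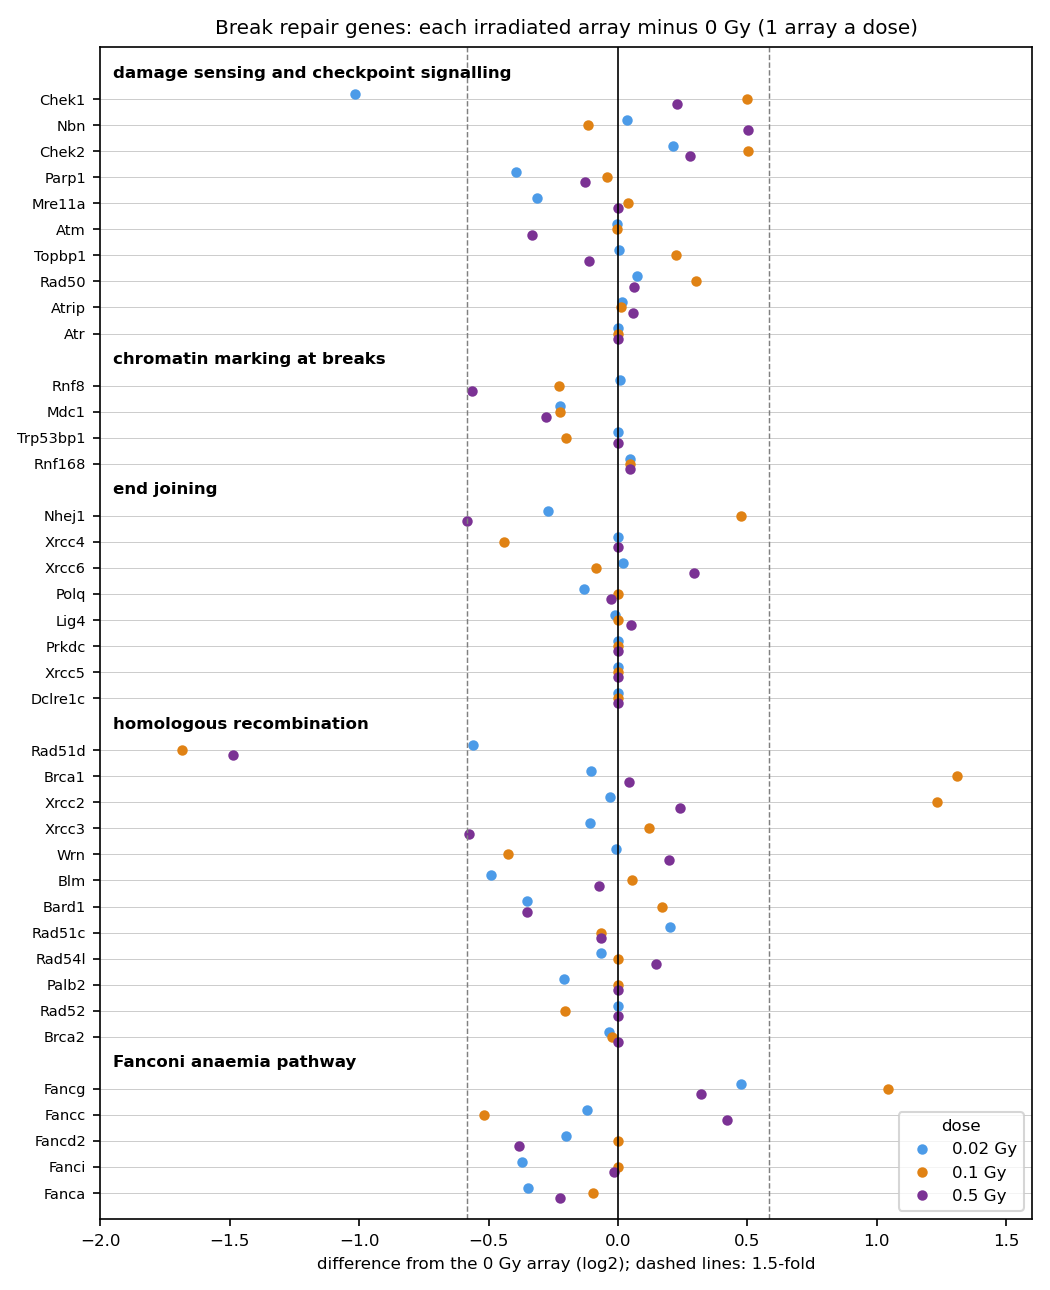
Difference of each irradiated array from the 0 Gy array (log2, horizontal axis) for the 39 members in rows, grouped by role and coloured by dose, with dashed lines at 1.5-fold. Of 117 points, 6 lie beyond the dashed lines, from -1.69 for Rad51d at 0.1 Gy to 1.31 for Brca1 at 0.1 Gy, and 4 genes have all 3 points at 0.

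Chek1 encodes the kinase that ATR activates when replication forks stall, and it holds cells in S and G2 phase. Its values were 6.84, 5.82, 7.34 and 7.06 at 0, 0.02, 0.1 and 0.5 Gy. The 0.02 Gy array alone was low, 2.02-fold below 0 Gy and 2.86-fold below 0.1 Gy. Genes of cell division were low on the same array. All 30 proliferation genes listed had a value at 0.02 Gy below that at 0 Gy, 12 of them by at least 1.5-fold, with a median difference of -0.54. Examples were the mitotic kinase gene Plk1 at -1.12 and the replication factor gene Mcm10 at -0.99. At 0.1 and 0.5 Gy the median of these genes was 0.05 and -0.01. In sorted populations measured as a whole, fewer dividing cells and less of this RNA per cell cannot be told apart, and whether the Chek1 value depends on them was not tested.

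Brca1 joins the BARD1 protein in a ubiquitin ligase that favours end resection and helps to bring in BRCA2. Its values were 6.01, 5.90, 7.32 and 6.05 at 0, 0.02, 0.1 and 0.5 Gy, so the 0.1 Gy array stood alone, 2.48-fold above 0 Gy, and the other 3 arrays lay close together. Xrcc2, a homologous recombination gene, had 5.39, 5.36, 6.62 and 5.62 and was 2.35-fold higher at 0.1 Gy than at 0 Gy. Fancg had 4.96, 5.43, 6.00 and 5.28, with the 0 Gy array lowest and a difference of 1.04 at 0.1 Gy. Each of these 3 genes was at least 0.5 above all the other arrays at 0.1 Gy, and 0 other members were. Such gaps were not counted over all named genes, so the number cannot be set against a background. The proliferation genes had 1 of 30 at least 1.5-fold higher at that dose, Mcm10 at 0.69. The granulocyte progenitor markers had 6 of 12 higher and the erythroid markers 3 of 7 higher, led by Mpo at 3.97 and Klf1 at 1.39. At 0.5 Gy these lists had 7 of 12 and 4 of 7 higher, with Mpo at 2.29 and Klf1 at 1.19, while Brca1 was at 0.04, Xrcc2 at 0.24 and Fancg at 0.32. The part of these marker differences in the 0.1 Gy values was not tested.

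Rad51d was the member with the widest range, 1.69. Its product works in the same complex as XRCC2. Its values were 7.04, 6.48, 5.36 and 5.55 at 0, 0.02, 0.1 and 0.5 Gy. The 0 Gy array was highest, and the 0.1 and 0.5 Gy arrays were 3.22-fold and 2.80-fold below it. At 0.02 Gy the difference was -0.56, just under the 1.5-fold size. Its partner genes had other patterns, as Xrcc2 was highest at 0.1 Gy and Rad51c, a gene of related function, had low values of 3.23, 3.43, 3.17 and 3.17.

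**Figure D2:**
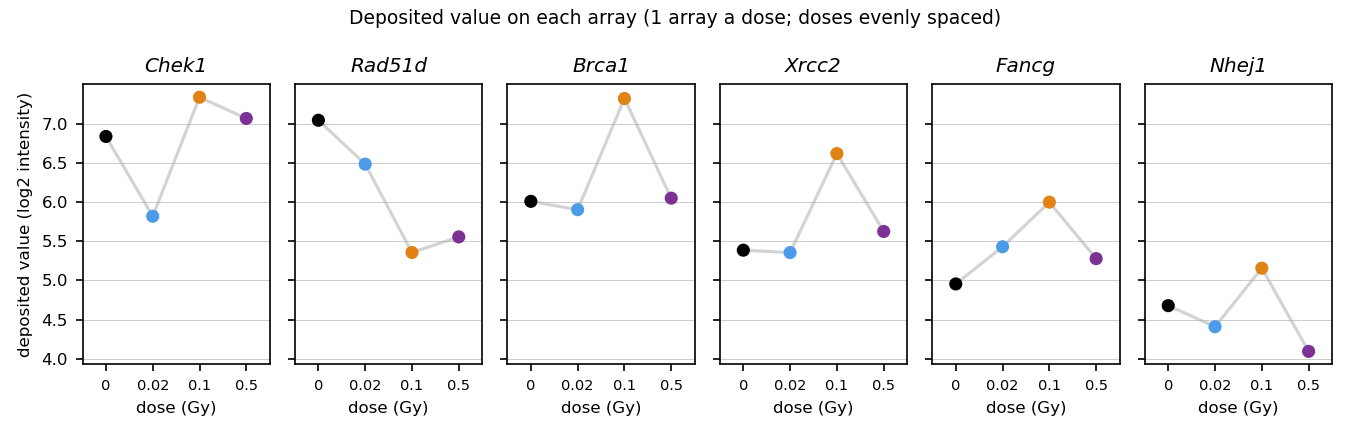
Deposited log2 intensity (vertical axis) on the 4 arrays in order of dose (0, 0.02, 0.1 and 0.5 Gy, evenly spaced) for the 6 members with a range of 1 or more, with 1 array and so 1 point a dose. Chek1 has its low point at 0.02 Gy, Brca1, Xrcc2, Fancg and Nhej1 have their high point at 0.1 Gy, and Rad51d has its high point at 0 Gy, while levels of different genes are not comparable.

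Promoters are shown for Chek1, which was lower at 0.02 Gy, and for Brca1 and Fancg, which were added after their values were seen because they were higher at 0.1 Gy. They come from RefSeq, build GRCm38.p6, and run from 250 bases before to 50 after the start, 5′ to 3′ on the minus strand of chr9:36726609-36726908 for Chek1, chr11:101551906-101552205 for Brca1 and chr4:43010252-43010551 for Fancg. Capitals mark words of the kind that E2F factors, regulators of S-phase genes, bind.
Chek1: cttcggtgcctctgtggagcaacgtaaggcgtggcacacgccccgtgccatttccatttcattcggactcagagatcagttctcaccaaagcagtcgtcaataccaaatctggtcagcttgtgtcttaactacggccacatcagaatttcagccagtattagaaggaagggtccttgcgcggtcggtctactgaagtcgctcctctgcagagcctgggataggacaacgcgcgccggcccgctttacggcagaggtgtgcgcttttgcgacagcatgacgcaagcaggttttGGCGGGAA
Brca1: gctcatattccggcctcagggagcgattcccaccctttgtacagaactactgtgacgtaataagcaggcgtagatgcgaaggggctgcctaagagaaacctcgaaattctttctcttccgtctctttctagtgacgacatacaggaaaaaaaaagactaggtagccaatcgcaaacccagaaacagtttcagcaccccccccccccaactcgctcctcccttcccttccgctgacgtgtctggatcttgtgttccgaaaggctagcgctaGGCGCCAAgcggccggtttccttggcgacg
Fancg: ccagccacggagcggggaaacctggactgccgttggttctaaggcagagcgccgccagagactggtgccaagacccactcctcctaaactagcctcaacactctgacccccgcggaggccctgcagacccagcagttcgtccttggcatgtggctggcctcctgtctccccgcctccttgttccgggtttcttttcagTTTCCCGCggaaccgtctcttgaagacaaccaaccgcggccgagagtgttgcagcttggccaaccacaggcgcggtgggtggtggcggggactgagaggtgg
The words searched on both strands were TTTGGCGC, TTTCCCGC, TTTCGCGC and TTTGCCGC, and, chosen after the Chek1 sequence was seen, TTCCCGCC, TTGGCGCC, TTCGCGCC and TTGCCGCC. A word of the first set can overlap one of the second by 7 bases.

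The Fancg window held TTTCCCGC at base 199, counted from 1 at its 5′ end, and the Chek1 and Brca1 windows held GGCGGGAA at base 293 and GGCGCCAA at base 271, which are words of the second set read on the other strand. Of the 39 members, 32 had 35 windows in the table. The first set was present in 9 of these 35 windows (25.7%), against 2.85% of 21466 windows of genes on the array and 2.26% of all 32851 windows. Its holders were Bard1, Brca2, Chek2, Fancg, Mdc1, Rad51c, Topbp1 and Xrcc6. The second set was present in 9 of 35 (25.7%), against 5.21% of windows of genes on the array. A further motif, TTTGAA, the cell cycle homology word of many mitotic genes, was in 3 of 35 member windows (8.57%), against 15.4%. As the second set was chosen with the Chek1 sequence in view, the Chek1 match was fixed by that choice. Windows of Rad51d and Xrcc2 were not searched. A match is a description of letters only.

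The other 9 genes of damage sensing and checkpoint signalling stayed under 1.5-fold from 0 Gy at each dose, with ranges over the 4 arrays of 0 to 0.62. Of all named genes, 18.3% were at least 1.5-fold from 0 Gy at some dose. Atr, which encodes the kinase activated by single-stranded DNA, had 6.15 on each of the 4 arrays, and Atrip, its binding partner, lay between 6.68 and 6.73. Atm, the kinase that breaks activate directly, had 6.73 at 0, 0.02 and 0.1 Gy and 6.39 at 0.5 Gy, the single low array. Its effector kinase gene Chek2 had 6.43, 6.64, 6.93 and 6.71, with the 0 Gy array lowest, and reached a difference of 0.50 at 0.1 Gy. The 3 genes of the MRN complex, which tethers broken ends, did not share a pattern. Nbn was highest at 0.5 Gy with 7.80 against 7.29 at 0 Gy, Rad50 was highest at 0.1 Gy with 8.36 against 8.05, and Mre11a, now named Mre11, was lowest at 0.02 Gy with 7.62 against 7.93. Parp1, which encodes an enzyme that marks strand breaks with poly(ADP-ribose), had 8.62, 8.23, 8.58 and 8.50, and its difference at 0.02 Gy was -0.39. Topbp1, an activator of ATR, ranged from 8.43 to 8.76.

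Of the 4 genes that mark chromatin around a break, 0 reached 1.5-fold from 0 Gy at any dose, beside 18.3% of all named genes. At 0.02 Gy 2 lay above 0 Gy, 1 below and 1 equal, and at 0.1 Gy 1 lay above and 3 below. At 0.5 Gy 1 was above, 2 below and 1 equal. Of all 23740 named genes, 9131 lay below and 9177 above 0 Gy at 0.1 Gy. Mdc1, whose product binds phosphorylated histone H2AX, had 8.62, 8.62 and 8.57 at 0.02, 0.1 and 0.5 Gy, against 8.84 at 0 Gy, so all 3 irradiated arrays were lower by 0.23 to 0.28. Rnf8, the first ubiquitin ligase of the cascade, had 6.16, 5.92 and 5.58 at the 3 doses, against 6.15 at 0 Gy, with a difference of -0.57 at 0.5 Gy. Rnf168, the ligase that follows it, had 8.17 on every irradiated array, against 8.12 at 0 Gy. Trp53bp1, which encodes a protein that shields ends from resection, had 6.43 on 3 arrays and 6.23 at 0.1 Gy.

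Of the 8 end joining genes, 3 had exactly the same value on all arrays. Xrcc5, which encodes the Ku80 end-binding subunit, had 7.33, Prkdc, which encodes the DNA-PK catalytic subunit, 5.93 and Dclre1c, which encodes the nuclease Artemis, 5.21 on each of the 4 arrays. Xrcc6, which encodes the partner subunit Ku70, had 7.75, 7.77, 7.66 and 8.04. Xrcc4, the scaffold of the ligase complex, had 6.10 on 3 arrays and 5.66 at 0.1 Gy, and Lig4, the ligase itself, lay between 3.47 and 3.53, below 4.07. Nhej1, which encodes the accessory factor XLF, had 4.68, 4.41, 5.16 and 4.10, so it was highest at 0.1 Gy and lowest at 0.5 Gy, a range of 1.06. Its difference from 0 Gy at 0.5 Gy was -0.583, just short of 1.5-fold. Polq, the polymerase of the alternative pathway, lay between 4.24 and 4.37. Over the 8 genes, 0 were at least 1.5-fold from 0 Gy in either direction at any dose, beside 18.3% of all named genes. A list of 8 genes is too small to set this count apart from that share. The median difference was 0.00 at each dose.

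Of the 12 recombination genes, Brca1, Xrcc2 and Rad51d included, 10 were below 0 Gy at 0.02 Gy, 1 was above and 1 equal, with a median of -0.09. At 0.1 Gy 5 were above, 5 below and 2 equal, and at 0.5 Gy 4 were above, 5 below and 3 equal, with a median of 0.00 at both. Of all 23740 named genes, 9887 lay below and 8584 above 0 Gy at 0.02 Gy. The numbers were 9131 below and 9177 above at 0.1 Gy, and 9722 and 8963 at 0.5 Gy. Of the 11870 genes with a mean at or above 4.07, 5412 lay below and 4689 above at 0.02 Gy. Bard1 had 5.94, 5.59, 6.11 and 5.59, and Blm, the helicase that dissolves recombination intermediates, had 6.55, 6.05, 6.60 and 6.47 with its low value at 0.02 Gy. Wrn, a helicase of the same family, had 7.77, 7.76, 7.34 and 7.96 and was lowest at 0.1 Gy. Xrcc3 had 6.62, 6.51, 6.74 and 6.05, and its difference at 0.5 Gy was -0.575. Brca2, a central gene of homologous recombination, stayed between 6.57 and 6.60. Palb2, which links BRCA1 to BRCA2, had 4.47 at 0.02 Gy, against 4.68 on the other 3 arrays, and Rad52 had 5.48 at 0.1 Gy, against 5.68 on the others. Rad54l, a motor protein of recombination, ranged from 6.73 to 6.94.

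The 5 Fanconi genes, which act at interstrand crosslinks and stalled forks, gave 1 gene beyond 1.5-fold from 0 Gy, Fancg. Of all named genes, 18.3% were that far from 0 Gy at some dose, so 1 of 5 is near the background. Fancd2 and Fanci, the pair that the core complex ubiquitinates, had 5.33 and 5.08 at 0.02 Gy, against 5.53 and 5.45 at 0 Gy. At 0.5 Gy they had 5.15 and 5.43, so Fancd2 was lowest there. Fanca, a core complex gene, had 5.22, 5.48 and 5.35 at 0.02, 0.1 and 0.5 Gy, against 5.57 at 0 Gy. Fancc, another, had 3.96, 3.84, 3.44 and 4.38 at 0, 0.02, 0.1 and 0.5 Gy, values near or below 4.07 for which the size of a difference is uncertain.

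Comparisons between irradiated arrays do not use the 0 Gy array but share arrays with each other and with those above. At 0.1 Gy against 0.02 Gy, 4 members (10.3%) were at least 1.5-fold higher, beside 4.12% of all named genes, and 1 (2.56%) was lower, beside 5.48%. The higher ones were Chek1 at 1.52, Brca1 at 1.42, Xrcc2 at 1.26 and Nhej1 at 0.75, and Rad51d was lower at -1.13. At 0.5 Gy against 0.02 Gy, Chek1 at 1.25 was the 1 higher member, beside 4.14%, and Rad51d at -0.93 the 1 lower, beside 5.71%. At 0.5 Gy against 0.1 Gy, 5 members (12.8%) were lower, beside 4.41%, and 3 (7.69%) higher, beside 4.09%. The lower ones were Brca1 at -1.27, Nhej1 at -1.06, Xrcc2 at -0.99, Fancg at -0.72 and Xrcc3 at -0.70, and the higher ones were Fancc at 0.94, Wrn at 0.62 and Nbn at 0.62. Among genes with a mean at or above 4.07, 6.47% were lower and 5.91% higher in this last comparison. At 0.1 Gy against 0.02 Gy these genes had 5.88% higher and 8.13% lower, and at 0.5 Gy against 0.02 Gy 5.89% and 8.56%. Of the 39 members, 12 had their highest value on the 0.1 Gy array alone (30.8%), against 20.4% of all named genes, and 13 had their lowest on the 0.02 Gy array alone (33.3%), against 22.6%. In 0 members did the 4 values follow the order of dose strictly in either direction, beside 1.82% of named genes that increased and 2.01% that decreased with it.

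**Figure D3:**
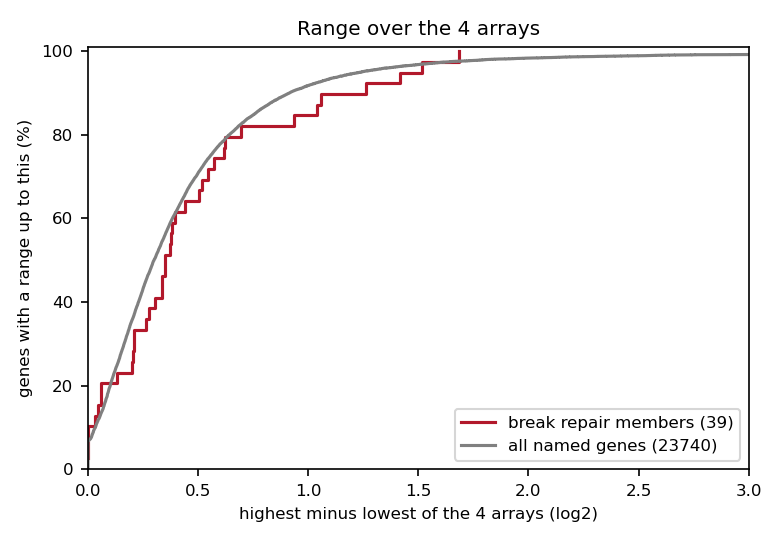
Share of genes (vertical axis, %) whose highest minus lowest value over the 4 arrays is at most the value on the horizontal axis (log2), for the 39 members and for all 23740 named genes; 189 named genes lie beyond the axis. The median range was 0.35 for members and 0.30 for all named genes, and 6 members (15.4%) had a range of 1 or more, against 8.21% of all. Genes with a mean at or above 4.07, as most members had, had a median range of 0.41 and are not drawn apart.

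The median range over the 4 arrays was 0.35 for members, 0.30 for all named genes and 0.41 for genes with a mean at or above 4.07, which 36 of the 39 members passed. Rad51d, Chek1, Brca1 and Xrcc2, the members with the widest ranges, had wider ranges than 97.6%, 96.9%, 96.3% and 95.2% of all named genes. These shares were not computed among genes with a mean at or above 4.07, whose ranges were wider at the median. Exact ties between arrays were common in the deposited values. At least 1 tie occurred in 20 members (51.3%) and in 57.4% of named genes, and 4 members had the same value on all arrays, as had 6.76% of named genes. A difference of exactly 0.00 in these data is therefore a property of the deposited values shared by many genes.

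To ask whether irradiated arrays as a set differed from 0 Gy, the 3 irradiated arrays were compared with the 0 Gy array in limma, with differences between doses as the error and the lone 0 Gy array assumed to vary like the others. Of 39 members, 0 passed an adjusted p of 0.05 in limma, beside 0.88% of all named genes, and 2 (5.13%) had an unadjusted p under 0.05, beside 11.8% of all. The smallest adjusted p among members was 0.166 for Mdc1 in limma, with a difference of -0.24 (SE 0.03), lower on 3 of 3 irradiated arrays. Rad51d had -1.24 (SE 0.62) and an adjusted p of 0.763 in limma, also lower on 3 of 3. Chek2 had 0.33 (SE 0.16) and an adjusted p of 0.726 in limma, higher on 3 of 3. The 2 members with an unadjusted p under 0.05 in limma were Mdc1 and Rnf168. Mdc1 had the same value at 0.02 and 0.1 Gy. Rnf168, with a difference of 0.05, had the same value on all 3 irradiated arrays. Exact ties make the SE small, so these p-values rest in part on ties. Of the 209 named genes that passed, 151 had exactly the same value on the 3 irradiated arrays, a tie that 11.4% of all named genes had. All of these calls were lost when the arrays were centred on their medians.

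Of 80 other break repair genes listed, those higher and lower by 1.5-fold or more numbered 4 (5.0%) and 7 (8.75%) at 0.02 Gy, beside 4.58% and 4.29% of all named genes. They numbered 6 (7.5%) and 3 (3.75%) at 0.1 Gy, beside 4.01% and 4.97%, and 5 (6.25%) and 4 (5.0%) at 0.5 Gy, beside 4.36% and 5.4%. The single-strand binding genes Rpa3 and Rpa2 were lowest at 0.02 Gy, with 7.35 against 8.48 and 7.61 against 8.42 at 0 Gy. Clspn, the adaptor that CHK1 activation needs, had 5.48 at 0.02 Gy, against 6.12 on the other 3 arrays, Wee1 was at -0.64 and the clamp subunit gene Rad9a at -0.63 at this dose. The checkpoint list had 21 of 27 genes below 0 Gy at 0.02 Gy and 4 above. Of all 23740 named genes, 9887 lay below and 8584 above. By at least 1.5-fold, 5 of the 27 (18.5%) were lower, beside 4.29% of all named genes. The share was 6.22% of those with a mean at or above 4.07. At 0.1 Gy 13 of the 27 were below and 8 above, and at 0.5 Gy 16 were below and 6 above. At 0.02 Gy Exo1, a resection nuclease, was at -0.76 and Dna2, another, at -0.60. In the recombination list, Swsap1 had 5.68, 6.00, 6.84 and 7.36 in order of dose, each array above the one before. Zswim7 of the same list had 7.15, 6.61, 6.91 and 6.39, below 0 Gy at each dose and by -0.76 at 0.5 Gy. Rmi1 was at 0.64 and 0.59 at 0.02 and 0.1 Gy. Rmi2, a subunit of the BLM complex, had 6.14, 5.57, 7.04 and 6.14, with its high value at 0.1 Gy, and Rad51ap1 was at 0.61 and 0.72 at 0.1 and 0.5 Gy. Among end joining genes Lig3, the ligase of the alternative pathway, had 7.32, 7.62 and 7.32 at 0.02, 0.1 and 0.5 Gy, against 6.70 at 0 Gy. Of 14 other Fanconi genes, Faap100 was at 0.69 at 0.02 Gy and Brip1, a helicase that binds BRCA1, at -0.70 at 0.5 Gy.

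**Figure D4:**
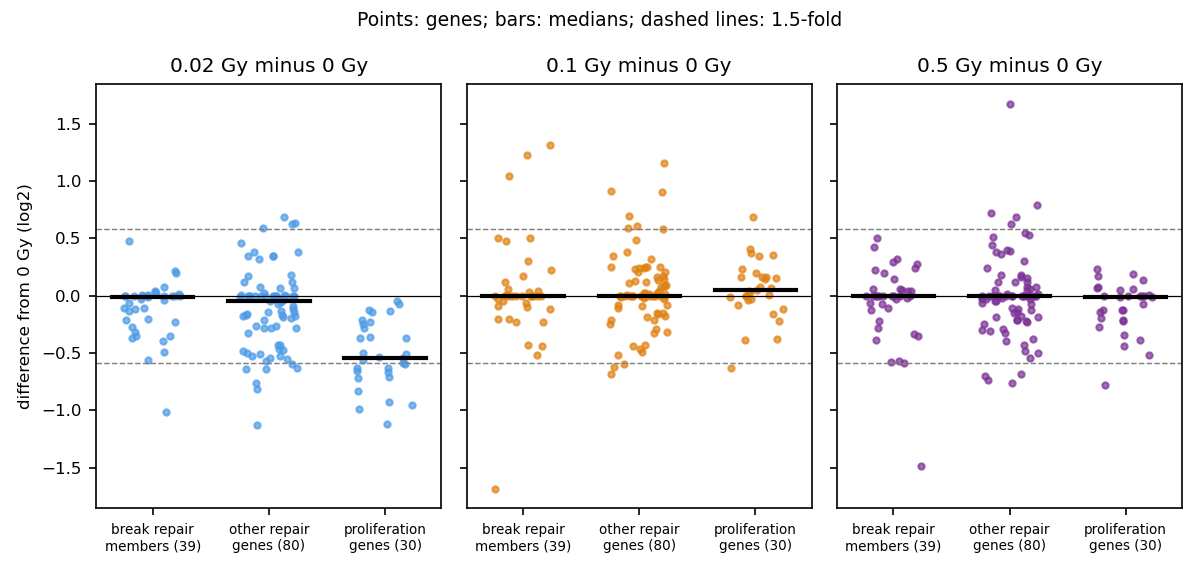
Difference from the 0 Gy array (log2, vertical axis) at 0.02, 0.1 and 0.5 Gy for the 39 members, 80 other repair genes and 30 proliferation genes, with a point for each gene, a bar at the median and dashed lines at 1.5-fold. The proliferation median at 0.02 Gy is -0.54, beside -0.01 for members and -0.05 for the other repair genes, and at 0.1 and 0.5 Gy all medians lie between -0.01 and 0.05.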

How the data were processed

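Values for 4 arrays, 1 a dose, were used as deposited, with groups taken from the labels. Per the labels' protocols, biotin-labelled cDNA was made with an Affymetrix whole-transcript kit, and Partek is named without role or version. The deposited values are log2 intensities, 1 per Entrez gene, with the base inferred from their range of 1.22 to 13.0. For background correction, normalization and build, the method is not given in the sources used here. Arrays have no read depth, so their number limits the precision.

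Of 25206 probe sets, 23185 had a symbol in the platform table, and in all of these the row name was the Entrez ID. Another 555 were named by that ID through RefSeq, among them Xrcc2 and Dclre1c, and 1466 were left out. Members at 1.5-fold or more and the 12 widest ranges were named in full, of other lists the largest differences. The members, lists and rules were chosen with earlier results of these data known. From the lists, 1 repair gene and 1 erythroid marker are left out and not reported here. The fit of irradiated against 0 Gy arrays (limma 3.58.1, R 4.3.3, moderated by eBayes, p-values adjusted by Benjamini-Hochberg over 23740 genes) had 2 residual degrees of freedom. It was also run on simulated data with independent normal noise. Those data held no exact ties, so that run cannot speak to genes with tied values. Alternatives were quantile normalization, median centring, fold sizes of 1.3 and 2, the mean of the other 3 arrays as comparison, a filter on low values, an intensity trend and leaving out each irradiated array.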

Additional observations from a re-analysis of the deposited data

How the results depend on the processing

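The differences of Chek1, Brca1, Xrcc2, Fancg and Rad51d were recomputed under quantile normalization, median centring and the mean of the other 3 arrays as comparison. All 18 recomputed values kept their direction and stayed at 1.5-fold or more, the smallest being 0.74 in size. These differences were picked because they had reached 1.5-fold on the same arrays. Each alternative reuses those arrays, so the outcome describes the processing and cannot show that a difference would recur. Counts of members higher and lower were the same under quantile normalization, median centring, a fold of 2 and the filter on low values. At a fold of 1.3 they were 1 higher and 4 lower at 0.02 Gy, 6 and 4 at 0.1 Gy, and 2 and 5 at 0.5 Gy. Against the mean of the other 3 arrays they were 5 and 2 at 0.1 Gy and 1 and 2 at 0.5 Gy, with Nhej1 and Chek1 joining the higher and Fancc the lower members at 0.1 Gy. Medians over members moved by less than 0.1 under each alternative. The 209 named genes that passed became 0 under quantile normalization, median centring or the filter, 314 with an intensity trend, and 0 without any 1 of the irradiated arrays, which leaves 1 residual degree of freedom. The members' count of 0 in limma was then fixed wherever 0 genes passed, and with the intensity trend it was also 0. Median centring and quantile normalization break the exact ties that most of these genes had. No paired analysis was possible because each dose has 1 array. With 1 array a dose, a difference of any size cannot be set against the spread between samples, and signal over background was not given for single genes.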
